A study of Mus musculus with 4 samples.

Results

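The messages of Ets1 and of 8 further ETS transcription factors (Ets2, Etv6, Elk1, Elk3, Elf4, Erf, Erg and Etv5) were followed by RNA-seq in follicular B cells sorted as quiescent. The genes were chosen by symbol, as Ets1, its closest paralog and family members other than the better studied ETS factors of B cells, and all 9 had a value among the 23305 genes of each library. Cells were taken from spleens of female mice, whose age was not given in the sources used here for this experiment, and the gate asked for high CD23 and low CD21 on B220+ cells without CD80 or switched immunoglobulin on their surface. WT libraries came from C57BL/6 mice and Ets1-/- libraries from mice of a C57BL/6 and 129Sv mixed background that carry the germline Ets1 mutation in every cell, with 2 biological replicates per genotype. Strain and genotype therefore cannot be told apart, and the p-values measure only the spread between these samples.

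ETS factors share a winged helix-turn-helix DNA-binding domain that recognises a GGAA core, and they differ in flanking domains, in partner proteins and in whether they activate or repress. Several of them are direct targets of the ERK kinases, including Ets1, Ets2, Elk1, Elk3, Erf and Etv5. In B cells Ets1 is known for holding back differentiation to plasma cells, and closely related family members can occupy the same sites. The comparison asked whether any of these paralogs was present at a higher level in B cells that lack functional Ets1.

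Etv5, a member of the PEA3 group (Etv1, Etv4 and Etv5), was higher in Ets1-/- B cells, at 8.39 ± 0.470 FPKM against 2.53 ± 0.0339 FPKM in WT (SD, n = 2 each), a ratio of 3.31. Elk3, a ternary complex factor that works with the serum response factor, was lower, at 7.34 ± 0.607 FPKM against 16.3 ± 0.461 FPKM (SD, n = 2 each), which was 45.0% of the WT mean. Ets2, the closest relative of Ets1, did not pass the test, nor did Ets1 itself, Etv6, Elk1, Elf4 or Erf, and Erg was close to 0 in every library. FPKM divides a gene's fragments by transcript length in kilobases and by the mapped total of its library, so levels can be set side by side between genes. A gene was called changed when limma, on log2(FPKM + 1), gave a log2 fold change of 1 or more in size and a Benjamini-Hochberg adjusted p of at most 0.05 over the 10949 genes with a mean of at least 1 FPKM in either genotype. Among the 8 genes that passed this filter 1 was called higher, where 0.877% of all tested genes were, and 1 was called lower, where 0.822% were. The median log2 fold change of these 8 was 0.06, beside -0.02 over all tested genes.

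**Figure D1:**
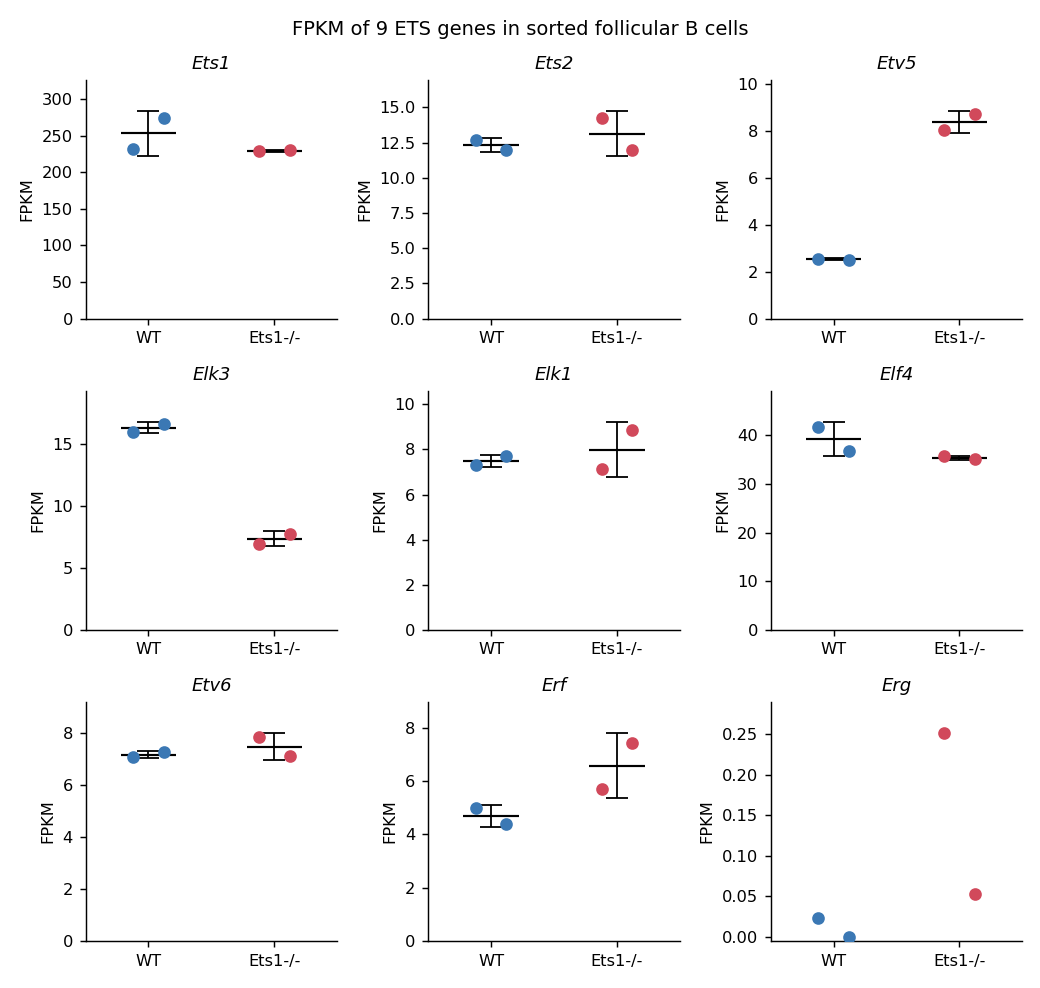
FPKM (vertical axes, linear) of the 9 genes in WT and Ets1-/- libraries, each dot 1 library, with a bar at the mean and whiskers of 1 SD (n = 2), which are left out for Erg because a library was at 0. The genotypes lie far apart for Etv5 and Elk3, and the Erg axis ends near 0.3 FPKM.

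The relatedness of the 9 proteins gives the background to the word paralog. The coding parts of the GENCODE M1 transcripts were translated and aligned with Ets1, and residues 335 to 414 of Ets1, a stretch of 80 residues in the C-terminal part of the 440-residue protein, aligned with all 8 others. Ets2 was identical to Ets1 at 96.2% of these positions, followed by Erg at 70.0%, Etv5 at 65.0%, Elk1 and Erf at 63.8% each, Elk3 at 60.0%, Elf4 at 52.5% and Etv6 at 45.0%. In all 9 proteins 21 of the 80 residues were the same. Thus the gene called higher was not the nearest relative of Ets1 in this stretch.

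The mutation of the Ets1 mice was described by the study as targeting the third exon and a part of the one before it. Both exons are given because they are what a value for the whole gene cannot resolve. Exons 2 and 3 of the GENCODE M1 transcript with the longest coding part were taken as the targeted ones. This is an assumption, because the study gave no coordinates and exon numbers depend on the transcript. The exons shown lie on the plus strand of mm9, at chr9:32536260-32536379 (120 bases) and chr9:32537640-32537840 (201 bases). Both belong to the coding part of that transcript.
Ets1 exon 2: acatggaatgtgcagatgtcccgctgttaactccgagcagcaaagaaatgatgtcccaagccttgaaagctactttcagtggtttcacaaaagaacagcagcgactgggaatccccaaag
Ets1 exon 3: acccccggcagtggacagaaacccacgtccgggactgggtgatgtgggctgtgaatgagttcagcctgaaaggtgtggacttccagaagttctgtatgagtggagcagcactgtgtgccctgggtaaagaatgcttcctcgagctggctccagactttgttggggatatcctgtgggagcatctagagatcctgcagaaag
Together they held 321 bases, or 6.34% of the 5060 bases of that transcript and 24.3% of its coding part, whereas the last exon alone held 71.3%. The exact part of the second exon that is removed was not given in the sources used here.

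Ets1 itself (mm9 chr9:32443806-32565405, plus strand) was measured at 231.2 and 275 FPKM in the WT libraries and at 229 and 229.8 FPKM in the Ets1-/- libraries. Both Ets1-/- values lay just below the lower WT value, and the gap between the genotypes was far smaller than the gap between the WT libraries. The log2 fold change (Ets1-/- minus WT, as throughout) was -0.14 with an SE of 0.17 and a 95% interval from -0.57 to 0.30 (limma, adjusted p = 0.860). Message of the locus was therefore present at a high level in both genotypes. The gene-level value does not check the genotype labels, since most of the transcript lies outside the exons taken as targeted. Ets1 ranked 2nd by WT mean among the 26 ETS genes listed, after Spib, and gave 24.5% and 28.4% of their summed FPKM in WT and 24.2% and 23.1% in Ets1-/- libraries. The tested genes nearest to Ets1 over the log2(FPKM + 1) values of the 4 libraries were Scd1, a fatty acid desaturase (Euclidean distance 0.138), Sumo2, a small ubiquitin-like modifier (0.174), and Eif4a1, a translation initiation helicase (0.174).

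Ets2 (mm9 chr16:95923682-95942658, plus strand), an activator that shares the pointed domain and the ERK phosphorylation site of Ets1, was at 12.7 and 12.0 FPKM in WT and at 14.3 and 12.0 FPKM in Ets1-/- libraries. The second library of each genotype gave nearly the same value, and the ranges of the genotypes overlapped. The log2 fold change of Ets2 was 0.08 with an SE of 0.15 (limma, adjusted p = 0.918), and its 95% interval spanned ratios from 0.809 to 1.38 on the FPKM + 1 scale. The direction rested on 1 library, because it was -0.038 without Ets1-/- replicate 1. The summed FPKM of Ets1 and Ets2 was 244 and 287 in WT and 243 and 242 in Ets1-/- libraries, of which Ets2 made up a small share throughout.

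Etv5 (mm9 chr16:22381382-22439792, minus strand) acts downstream of fibroblast growth factor and Ras signals and is known for its part in spermatogonial stem cells and in the branching of the lung. It was measured at 2.56 and 2.51 FPKM in the WT libraries and at 8.06 and 8.72 FPKM in the Ets1-/- libraries. Replicates lay close together in both genotypes, and the lower Ets1-/- value was well above both WT values. The log2 fold change was 1.41 with an SE of 0.14 and a 95% interval from 1.05 to 1.77 (limma, adjusted p = 0.0184). By size of the rise Etv5 ranked 163rd of 10949 genes, and 2.68% of them had a larger absolute change. Among the 26 ETS genes it moved from rank 16 by WT mean to rank 12 by Ets1-/- mean.

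The other PEA3 genes stayed near 0. Etv4 was at 0.0220 and 0.0377 FPKM in WT and at 0.0924 and 0.226 FPKM in Ets1-/- libraries, and Etv1 was below it in the same libraries, so both fell under the filter and were not tested. Etv5 therefore accounted for nearly the whole PEA3 sum of 2.59 and 2.55 FPKM in WT and 8.17 and 8.98 FPKM in Ets1-/- libraries. In absolute terms Etv5 stayed a minor ETS message, with 0.270% and 0.259% of the summed ETS FPKM in WT and 0.854% and 0.877% in Ets1-/- libraries. The Etv5 call was lost when any 1 of the 4 libraries was left out (adjusted p from 0.0642 to 0.152), while the log2 fold change stayed between 1.36 and 1.46. It was also lost without a filter on low values (adjusted p = 0.0685) and with the filter at 5 FPKM (adjusted p = 0.0543).

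Elk3 (mm9 chr10:92710159-92773880, minus strand), also known as Net, represses its targets until it is phosphorylated by ERK. It was measured at 16.0 and 16.6 FPKM in the WT libraries and at 6.91 and 7.76 FPKM in the Ets1-/- libraries. As for Etv5, the replicates lay close together and the genotypes far apart. The log2 fold change was -1.06 with an SE of 0.14 and a 95% interval from -1.41 to -0.70 (limma, adjusted p = 0.0402). By size of the fall Elk3 ranked 197th of 10949 genes, and among the ETS genes it moved from rank 10 to rank 15. The call lay close to the thresholds on both size and p. It was lost when any 1 of the 4 libraries was left out (log2 fold change from -1.13 to -0.98, adjusted p from 0.0772 to 0.343), without a filter (adjusted p = 0.0843) and after quantile normalization (-1.03, adjusted p = 0.0565).

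Elk1 (mm9 chrX:20510521-20527734, minus strand), the ternary complex factor that activates immediate early genes upon ERK phosphorylation, was at 7.30 and 7.69 FPKM in WT and at 7.14 and 8.86 FPKM in Ets1-/- libraries. The Ets1-/- values enclosed the WT values, and the log2 fold change was 0.08 (SE 0.16, 95% interval -0.33 to 0.48, limma adjusted p = 0.929). Without Ets1-/- replicate 2 the value of Elk1 was -0.062. The FPKM ratio of Elk3 to Elk1 was 2.19 and 2.16 in WT and 0.968 and 0.876 in Ets1-/- libraries. Elk3 was thus well above Elk1 in WT libraries and slightly below it in Ets1-/- libraries, where their ranges overlapped. Elk4, the remaining ternary complex factor, was the most abundant of them, with a log2 fold change of 0.05 (limma, adjusted p = 0.971). The share of Elk3 in the sum over Elk1, Elk3 and Elk4 was 30.9% and 29.99% in WT and 14.1% and 17.8% in Ets1-/- libraries.

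**Figure D2:**
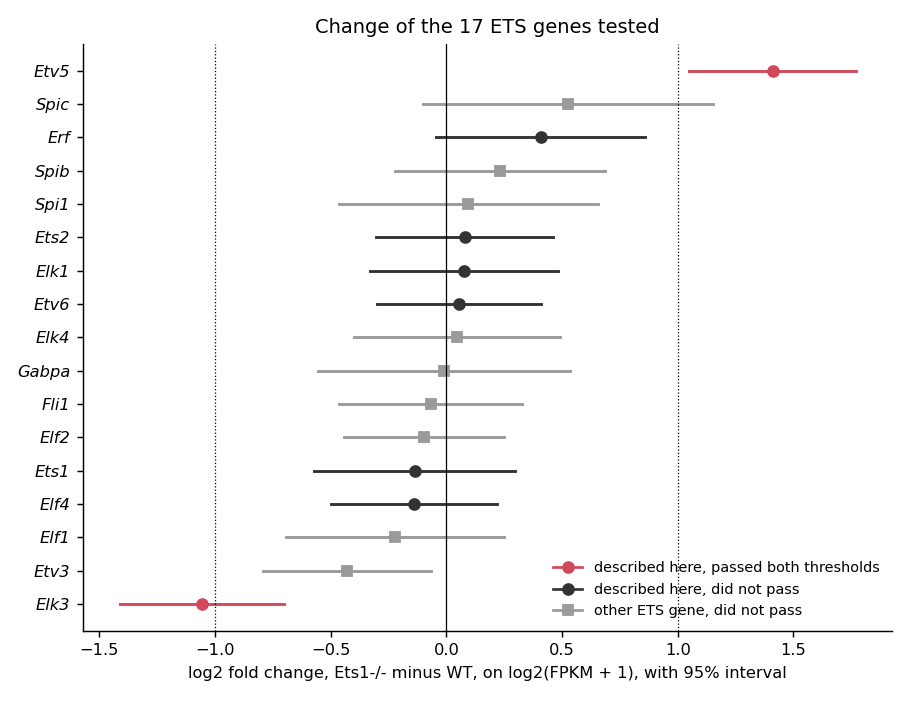
Log2 fold change on log2(FPKM + 1), Ets1-/- minus WT (horizontal axis), of the 17 ETS genes tested, with 95% intervals from limma and dotted lines at the fold minimum. Etv5 at 1.41 and Elk3 at -1.06 stand at the ends of the order, and the intervals of all other genes but Etv3 span 0.

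Elf4 (mm9 chrX:45764223-45816309, minus strand), known for keeping T cells quiescent and for its role in NK cell development, was the most abundant of the 9 genes after Ets1. It was at 41.7 and 36.7 FPKM in WT and at 35.7 and 35.2 FPKM in Ets1-/- libraries. Both Ets1-/- values were below both WT values, by less than the distance between the WT libraries, and the log2 fold change was -0.14 (SE 0.14, 95% interval -0.50 to 0.22, limma adjusted p = 0.808). NK cell markers were also lower in Ets1-/- libraries, with a summed level of 9.08 to 18.7 FPKM in WT and 1.59 to 6.51 FPKM in Ets1-/-, and their part in the Elf4 values was not tested.

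The repressors Etv6 and Erf did not pass the test. Etv6 (mm9 chr6:133985718-134220176, plus strand), also known as Tel and needed for blood stem cells in the bone marrow, was at 7.07 and 7.26 FPKM in WT and at 7.85 and 7.11 FPKM in Ets1-/- libraries. These values overlapped, with a log2 fold change of 0.05 (SE 0.14, 95% interval -0.30 to 0.41, limma adjusted p = 0.949), which was -0.0092 without Ets1-/- replicate 1. Erf (mm9 chr7:26027580-26035780, minus strand), a repressor that leaves the nucleus when phosphorylated by ERK, was at 4.98 and 4.38 FPKM in WT and at 5.71 and 7.44 FPKM in Ets1-/- libraries. Both Ets1-/- values were above both WT values, yet the Ets1-/- replicates were farther apart than the nearest values of the genotypes. The ratio of means of Erf was 1.40 and its log2 fold change 0.41 (SE 0.18, 95% interval -0.05 to 0.86, limma adjusted p = 0.431). Etv5 was below Erf in both WT libraries, with FPKM ratios of 0.513 and 0.572, and above it in both Ets1-/- libraries, with ratios of 1.41 and 1.17.

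Erg (mm9 chr16:95580776-95808200, minus strand), a factor of endothelium and blood stem cells, was at 0.0234 and 0 FPKM in WT and at 0.252 and 0.0533 FPKM in Ets1-/- libraries. It fell under the filter and was not tested, and no fold change is given because a WT library was listed at 0. Its values were highest in Ets1-/- replicate 1, the library with the most neutrophil marker message (below). The ratio of that library to the other Ets1-/- library was 4.73 for Erg, a ratio of values near 0. Over the summed marker lists this ratio ran from 0.244 (NK cell) to 3.65 (neutrophil), with 2.31 for erythroid and 0.787 for endothelial markers. The part of other cells in the Erg values was not tested. The 7 endothelial markers summed to 83.3 to 92.9 FPKM in WT and 68.7 to 87.2 FPKM in Ets1-/- libraries, nearly all of it Pecam1, which B cells also express. Of the 7, 3 (Cdh5, Kdr and Tie1) were higher without overlap and 0 lower, where 19.4% and 22.2% of all tested genes were. Vwf was at 0.141 and 0.0558 FPKM in WT and at 0.0424 and 0.0621 FPKM in Ets1-/- libraries. Cdh5 was at 0.410 and 0.453 FPKM in WT and at 0.737 and 0.609 FPKM in Ets1-/- libraries, Emcn was at 0 in all libraries, and Kdr, Tek and Tie1 were each below 0.1 FPKM.

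Of the 8 tested genes, the 4 libraries separated the genotypes without overlap in the higher direction for 2 (Etv5 and Erf) and in the lower direction for 3 (Ets1, Elf4 and Elk3). Over all tested genes 19.4% lay higher and 22.2% lower without overlap, so such a separation was common in these data. The level order in WT was Ets1, Elf4, Elk3, Ets2, Elk1, Etv6, Erf, Etv5 and Erg, and each neighbouring pair was apart in the WT libraries, although narrowly for Elk1 and Etv6. In Ets1-/- libraries the order by mean was Ets1, Elf4, Ets2, Etv5, Elk1, Etv6, Elk3, Erf and Erg, where each neighbouring pair from Etv5 to Erf overlapped.

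**Figure D3:**
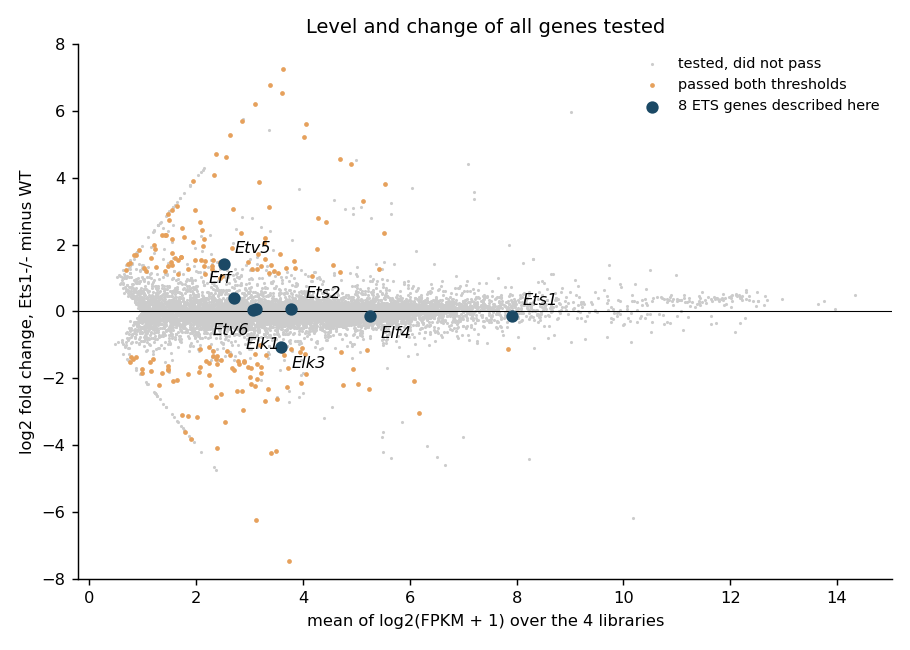
Mean log2(FPKM + 1) over the 4 libraries (horizontal axis) against log2 fold change, Ets1-/- minus WT (vertical axis), for the 10949 genes tested, with the 8 tested ETS genes marked. Etv5 and Elk3 lie at the edge of the dense band around 0, far from the most changed genes.

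The remaining ETS genes served as the comparison. Of 17 listed, 9 passed the filter (Spib, Spi1, Elf1, Fli1, Elf2, Elk4, Etv3, Gabpa and Spic) and 0 were called in either direction by limma. At an unadjusted p under 0.05, which 13.3% of all tested genes reached in either direction, there was 1 of these 9, Etv3, a repressor related to Erf. Etv3 was at 28.4 and 28.4 FPKM in WT and at 22.4 and 19.4 FPKM in Ets1-/- libraries (log2 fold change -0.43, limma adjusted p = 0.273). Erf and Etv3 thus had values of opposite sign, neither past the test, and their sum was 33.4 and 32.8 FPKM in WT and 28.1 and 26.8 FPKM in Ets1-/- libraries. The highest fold change among the 9 was 0.53 for Spic, which was at 2.30 and 2.498 FPKM in WT and at 5.09 and 2.93 FPKM in Ets1-/- libraries (limma, adjusted p = 0.474). The median over the 9 was -0.01, and the 8 genes under the filter reached at most 0.226 FPKM in any library.

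Summed over the 26 genes, ETS message was 945 and 969 FPKM in WT and 943 and 995 FPKM in Ets1-/- libraries. Without Ets1 the sums were 714 and 694 FPKM in WT and 714 and 765 FPKM in Ets1-/- libraries. Ets2, Etv6, Elk1, Elk3, Elf4, Erf, Erg and Etv5 together gave 92.4 and 87.2 FPKM in WT and 85.9 and 87.1 FPKM in Ets1-/- libraries, so the sums of the genotypes lay within a few FPKM of each other while Etv5 and Elk3 moved in opposite directions inside them.

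**Figure D4:**
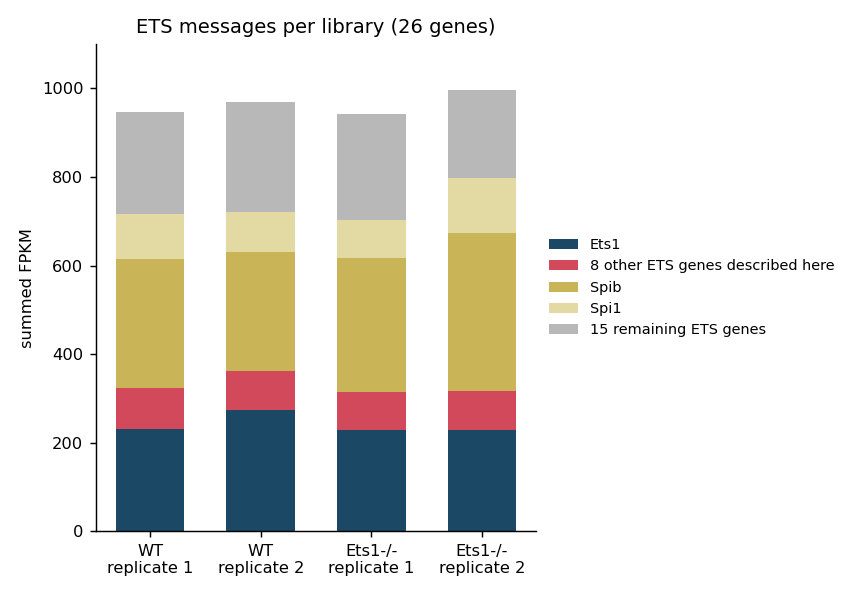
Summed FPKM (vertical axis, from 0) of the 26 ETS genes in each library, stacked by Ets1, the 8 other genes described, Spib, Spi1 and the 15 remaining genes. Ets1 and Spib make up most of every bar, and the 8 other genes stay between 85.9 and 92.4 FPKM.

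Sequences before the start sites of Etv5 and Elk3 are shown because these were the genes that passed the test. They are the 250 bases before each RefSeq start, from the RefSeq promoter table (GRCm38.p6, minus strand, so the coordinates are not those of the mm9 files), written 5′ to 3′ with each GGAA, or TTCC for the opposite strand, in capitals. Etv5 has a first start, for which the 250 bases lie at chr16:22439571-22439820, and a second start, with chr16:22438369-22438618, and Elk3 has a start with chr10:93311160-93311409.
Etv5 first start: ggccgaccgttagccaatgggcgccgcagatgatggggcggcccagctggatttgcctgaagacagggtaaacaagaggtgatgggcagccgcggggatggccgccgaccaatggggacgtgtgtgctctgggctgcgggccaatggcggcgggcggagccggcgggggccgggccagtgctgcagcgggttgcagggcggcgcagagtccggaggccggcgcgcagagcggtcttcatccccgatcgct
Etv5 second start: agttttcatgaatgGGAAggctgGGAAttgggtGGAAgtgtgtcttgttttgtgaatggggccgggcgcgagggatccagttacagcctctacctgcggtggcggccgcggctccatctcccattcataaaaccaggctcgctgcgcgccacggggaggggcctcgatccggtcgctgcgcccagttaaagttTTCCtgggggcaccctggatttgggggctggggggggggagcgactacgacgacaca
Elk3 start: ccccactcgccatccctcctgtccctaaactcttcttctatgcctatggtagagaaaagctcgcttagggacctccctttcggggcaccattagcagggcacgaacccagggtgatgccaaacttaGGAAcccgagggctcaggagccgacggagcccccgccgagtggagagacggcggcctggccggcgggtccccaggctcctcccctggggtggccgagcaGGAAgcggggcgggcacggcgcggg
The stretch before the first Etv5 start held 0 GGAA cores on either strand, that before the second start 4, and that before the Elk3 start 2. Of 32851 promoters of the same length 93.4% held at least 1 GGAA, with a median of 3. The longer form AGGAAG, which contains GGAA, was present once before the Elk3 start, 26 bases away, and is found in 29.5% of promoters. CGGAAG, found in 13.6% of promoters, was absent from all 3 stretches. The matches are a description of letters and not of bound sites. Of the 9 genes 8 matched the table, with 12 starts in all, and Ets1 has no entry.

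Partners and upstream regulators of ETS factors were looked at as a list of 41 genes, of which 38 passed the filter. By limma 0 were called, against the 0.877% and 0.822% of all genes called higher and lower, and 1 had an unadjusted p under 0.05. That gene was Runx1, a Runt factor that binds DNA together with Ets1, at 15.9 and 16.3 FPKM in WT and at 11.03 and 12.98 FPKM in Ets1-/- libraries (log2 fold change -0.40, limma adjusted p = 0.333). The median over the 38 was -0.05 and the range -0.46 to 0.82, the upper end being Jun. Pax5, which recruits Ets1 to a B cell promoter, was at 213 and 226 FPKM in WT and at 269 and 201 FPKM in Ets1-/- libraries, so that its genotypes overlapped.

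Immediate early genes known to be switched on through the serum response factor and the Elk proteins, or along with them, formed a list of 15. The list was not limited to targets of Elk1 and Elk3, and all 15 genes were tested. Of these 0 were called by limma, with a lowest adjusted p of 0.109 for Dusp1, and 6 had an unadjusted p under 0.05, all of them higher in Ets1-/- libraries, where 13.3% of all tested genes reached that p in either direction. The 6 were Egr1, Egr2, Fos and Fosb, which encode transcription factors, the phosphatase Dusp1 and the stress-response gene Ier3. Ier3 was near the filter, at 0.530 and 0.181 FPKM in WT and at 1.65 and 0.907 FPKM in Ets1-/- libraries. It passed only through its Ets1-/- mean, so its place among the genes counted as higher is not independent of the filter. Fos was at 687 and 1283 FPKM in WT and at 2120 and 2307 FPKM in Ets1-/- libraries (log2 fold change 1.24, SE 0.35, limma adjusted p = 0.204). Egr1 was at 132 and 250.2 FPKM in WT and at 636 and 462 FPKM in Ets1-/- libraries (log2 fold change 1.57, SE 0.36, limma adjusted p = 0.133). For both genes the Ets1-/- values lay above the WT values, and the WT libraries stood far apart from each other. Over the 15 genes the median log2 fold change was 0.73, beside -0.02 over all tested genes, and 9 lay higher without overlap and 0 lower, where 19.4% and 22.2% of all tested genes did.

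The purity of the sort was read from marker lists. Of 7 B cell markers 6 were found, including Cd79a and Fcer2a (CD23), and their sum was 5626 to 5798 FPKM in WT and 4572 to 5487 FPKM in Ets1-/- libraries. Neutrophil markers summed to 92.3 to 111 FPKM in WT and to 699 to 2555 FPKM in Ets1-/- libraries, and all 8 found of 9 listed were higher without overlap, as were 19.4% of all tested genes. Macrophage and monocyte markers summed to 31.5 to 64.3 FPKM in WT and 94.99 to 149 FPKM in Ets1-/- libraries, with 2 of 7 higher without overlap, a share not far from that of all genes, and erythroid markers to 3.95 to 6.21 FPKM and 27.5 to 63.5 FPKM, with 4 of 4. All 3 NK cell markers were lower without overlap in Ets1-/- libraries, as were 22.2% of all tested genes. T cell, plasma cell, dendritic cell and platelet sums differed less between genotypes than the neutrophil, macrophage, erythroid and NK cell sums. Of 6 plasma cell markers 2 (Sdc1 and Prdm1) were higher and 3 (Xbp1, Irf4 and Tnfrsf17) lower without overlap, where 19.4% and 22.2% of all tested genes were. Platelet markers summed to 0.917 and 1.01 FPKM in WT and to 1.89 and 1.32 FPKM in Ets1-/- libraries. Marginal zone markers summed to 95.6 to 116 FPKM in WT and 67.0 to 88.0 FPKM in Ets1-/- libraries. Of these 4 markers 1 (Dtx1) was lower without overlap and 0 higher, where 22.2% and 19.4% of all tested genes were.

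Neutrophil markers thus moved with the genotype, as did Etv5 and Elk3. The Ets1-/- libraries differed 3.65-fold from each other in the neutrophil sum, and the ratio of replicate 1 to replicate 2 was 0.924 for Etv5 and 0.889 for Elk3. Without Ets1-/- replicate 1, which held most neutrophil message, the log2 fold change was 1.46 for Etv5 (limma, adjusted p = 0.0659) and -0.98 for Elk3 (limma, adjusted p = 0.0944). The part of other cells in the Etv5 and Elk3 values was not tested. In bulk samples, fewer cells of a type and less RNA per cell cannot be told apart.

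**Figure D5:**
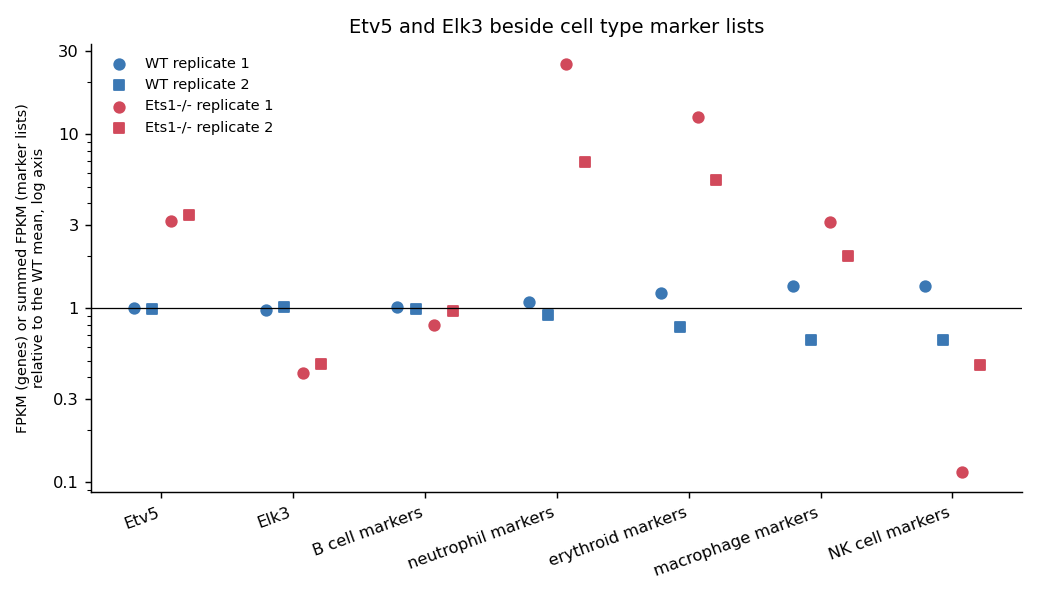
FPKM of Etv5 and Elk3 and summed FPKM of marker lists (horizontal axis) in each library, relative to the WT mean, on a log axis. Etv5 lies near 3 and Elk3 below 0.5 in both Ets1-/- libraries, while the neutrophil sum is 25.2 in replicate 1 and 6.89 in replicate 2.

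The nearest tested genes to each side of Etv5 and Elk3 on the chromosome, chosen after their values were seen, were not called. Genes that were not tested were passed over, so these neighbours need not be adjacent. They lay 115304 to 418126 bases from Etv5 and 84511 to 524994 bases from Elk3. The 4 tested neighbours of Etv5 (Tra2b, Senp2, Tbccd1 and Dnajb11) had log2 fold changes from 0.01 to 0.11. Of the 4 tested neighbours of Elk3, Nedd1, Lta4h and Snrpf had log2 fold changes of -0.22, 0.02 and -0.05. The nearest, the microRNA gene Mir1931, was at 0 in both WT libraries and at 7.41 and 0 FPKM in the Ets1-/- libraries (limma, adjusted p = 0.639).

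FPKM values do not give the read number they rest on. Relative depth, estimated from the steps between low values, ran from 0.863 to 1.76 with WT replicate 1 set to 1, and each library had 10466 to 10713 genes at 1 FPKM or more.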

How the data were processed

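RNA of sorted follicular B cells was sequenced from TruSeq libraries of 2 WT and 2 Ets1-/- samples. Per the submitters' processing notes, the authors aligned reads to mm9 with TopHat2 2.0.13 and estimated expression with Cuffdiff, and they deposited 1 FPKM value per gene symbol and library. The Cuffdiff version, its scaling and the annotation are not given in the sources used here. Of 23309 entries, 4 with a repeated symbol were left out.

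Log2(FPKM + 1) values of the 10949 genes with a mean of at least 1 FPKM in either genotype entered limma 3.58.1 (R 4.3.3, trend on mean expression, 2 residual and 3.10 prior degrees of freedom). This scale understates fold changes of low genes. The Benjamini-Hochberg adjustment covered all tested genes, and a call needed a log2 fold change of 1 or more in size with an adjusted p of at most 0.05. With 2 samples against 2, no permutation test can reach p = 0.05.

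The ETS genes and lists were chosen with earlier results of these data known. All 9 ETS genes are given with their values, the other ETS genes above the filter by name, and of the lists those genes called or with an unadjusted p under 0.05. Jun, Pax5, the neighbours and the ETS genes near 0 were named after their values were seen. Of the B cell marker list, 1 gene is not reported here and is not part of its sum. Positions are from GENCODE M1 (mm9) and promoters from RefSeq. Other values were computed with Python 3.11.15, pandas 2.3.3, numpy 2.4.6 and, for alignments, Biopython 1.88.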

Additional observations from a re-analysis of the deposited data

How the results depend on the processing

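The fit was repeated with 13 alternatives, the last of which, the crossed pairing, was chosen after seeing the data. With the settings of the report, limma called 186 genes in this re-analysis. Without a filter it called 75 genes, and 0 of the ETS genes described in either direction. With the filter at 5 FPKM it called 106, and 0 of the ETS genes higher. Quantile normalization gave 0 of the ETS genes lower. Robust variance estimation gave 305 calls, 1 of them an immediate early gene. An unadjusted p under 0.05 without the fold minimum was reached by 1461 genes, by 1 other ETS gene, 1 partner or regulator and 6 immediate early genes. Leaving out 1 library at a time gave 99 to 116 calls, 0 to 0 of the ETS genes higher and 0 to 0 lower, and 0 to 2 immediate early genes (2 without WT replicate 2). In those fits a genotype with a single library was assumed to vary like the other.

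Direction was kept for Ets1, Elk3, Elf4, Erf and Etv5 under all 13 alternatives. With 1 library left out, values ran from -0.038 to 0.20 for Ets2, from -0.0092 to 0.12 for Etv6 and from -0.062 to 0.22 for Elk1. Etv5 kept its call in 7 alternatives and Elk3 in 6. No scaling moved the median of all genes by more than 0.03 on the log2 scale.

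The labels give the genotypes the same replicate numbers, but the methods describe no pairing. Deviations of same-numbered samples correlated at -0.21 over 10949 genes, so same-numbered samples did not deviate together. With 2 samples per genotype, the crossed pairs have the same correlation with the opposite sign. A replicate block gave 266 calls, with 0 of the ETS genes lower (Elk3 adjusted p = 0.0557), 1 higher (Etv5 adjusted p = 0.0173) and 1 immediate early gene. With the crossed pairing as a block 409 genes were called, 5 of them immediate early genes.

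Depth behind each FPKM value is unknown, so values near 0, such as those of Erg, have no counting error attached.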
